A study of Mus musculus with 16 samples.

Results

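Actin is the protein of the thin filaments of muscle and of the filaments that lie beneath the membrane of every cell. The mouse has 6 conventional actin genes, and all 6 were among the 24454 genes of the counts table and passed the filter on low counts that left 15487 genes: *Acta1* (skeletal muscle), *Actc1* (cardiac muscle), *Acta2* and *Actg2* (vascular and enteric smooth muscle) and *Actb* and *Actg1* (cytoplasmic). They were chosen by name, and their normalized levels and their shares of the summed actin counts were followed in the gastrocnemius, a muscle of the calf, in 16 mice aged 3 months. HSALR mice carry a human skeletal actin transgene with an expanded CTG repeat in its untranslated part and model myotonic dystrophy type 1, and they received vehicle (n = 5) or AICAR (n = 5). Groups without AICAR are labelled CTRL, which was read as vehicle from the description of the design. Control mice of the FVB/N strain, which lack the transgene, received vehicle (n = 3) or AICAR (n = 3). AICAR, an activator of the energy sensor AMPK, was given at 500 mg/kg for 7 days. The transgene line is homozygous, is named LR20b and expresses the repeat in skeletal muscle alone, so that other cell types carry it without expressing it. The 2 treatments were compared within each genotype, and the 2 genotypes within each treatment.

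Skeletal muscle fibres switch between actin genes during life. The cardiac gene *Actc1* is expressed in embryonic skeletal muscle and gives way to *Acta1* around birth, while *Actb* and *Actg1* serve the cytoskeleton of all cells in the tissue, and *Acta2* is carried mostly by the smooth muscle of blood vessels. Serum response factor, which binds a DNA element called the CArG box, is a known regulator of muscle and cytoplasmic actin genes. The thin filament is completed by tropomyosins, nebulin, and proteins that cap, anchor and fold actin.

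In HSALR muscle after vehicle, *Acta1* was 1.24-fold higher, *Actc1* 8.87-fold lower and *Actg1* 1.38-fold lower than in control muscle. The *Acta1* counts of HSALR mice may include reads of the human transgene. The *Acta1* and *Actg1* calls were not kept in every alternative fit. *Actb*, *Acta2* and *Actg2* did not pass the test. After AICAR, *Acta1* was again higher and *Actc1* again lower in HSALR than in control muscle. AICAR itself went with lower *Actb* and lower *Actc1* in both genotypes, but none of these calls was kept in every alternative fit. In control mice both calls were lost in a fit of the 2 groups alone. Epidermal RNA, described below, was present in 4 of 5 vehicle-treated and 0 of 5 AICAR-treated HSALR mice. No actin gene passed a test for a different AICAR effect between the genotypes. The libraries held 64890014 to 81987726 counted reads each. A level is given as normalized CPM, the counts per 1e6 counted reads after scaling the libraries by TMM. Differences were tested with edgeR (quasi-likelihood F-test, p adjusted after Benjamini and Hochberg over 15487 genes, threshold 0.05), and errors are SD between mice, or the standard error of a fitted log2 fold change. In whole muscle, fewer cells of a type and less RNA per cell cannot be told apart.

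The coding sequences of the 6 genes are much alike, which bears on how far reads can be assigned to one of them. The last 60 coding bases, stop codon included, are printed below from the GENCODE transcripts of GRCm38, 5′ to 3′, to show how few bases separate the members. Capitals mark the bases that differ from *Acta1* at the same position.
Acta1: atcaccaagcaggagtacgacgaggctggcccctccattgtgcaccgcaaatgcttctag
Acta2: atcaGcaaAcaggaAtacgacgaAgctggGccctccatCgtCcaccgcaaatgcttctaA
Actb: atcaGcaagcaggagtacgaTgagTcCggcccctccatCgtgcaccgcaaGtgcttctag
Actc1: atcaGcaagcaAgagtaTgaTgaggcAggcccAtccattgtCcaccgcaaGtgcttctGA
Actg1: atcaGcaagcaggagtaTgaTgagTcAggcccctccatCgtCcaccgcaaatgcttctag
Actg2: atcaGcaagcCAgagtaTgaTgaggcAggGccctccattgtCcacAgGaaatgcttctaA
These stretches lie on the minus strand at chr8:123892009-123892068 (*Acta1*), chr19:34241667-34241726 (*Acta2*), chr5:142903798-142903857 (*Actb*), chr2:114047466-114047525 (*Actc1*), chr11:120346390-120346449 (*Actg1*) and chr6:83512985-83513044 (*Actg2*), each within 1 exon. Over these 60 bases *Actb* differed from *Acta1* at 6 positions, *Actg1* at 7, *Acta2* at 8, *Actc1* at 10 and *Actg2* at 11.

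Over the whole coding sequence, the identity between members lay between 81.5% and 88.7% in 15 pairs. The most alike were *Actb* and *Actg1* (88.7%), and *Actc1* was the member most like *Acta1* (86.2%). Windows of 50 bases were taken along each transcript, because the read length is not given in the sources used here, and compared with all transcripts of other genes in the same annotation. No window of *Actc1* or *Actg2* occurred in another gene, and 2.22% of the windows of *Acta1* and 0.352% of those of *Acta2* did. For *Actb* the share was 14.2%, and for *Actg1* it was 56.7%, with 22 other genes involved, 12 of which are annotated as pseudogenes. The pseudogenes *Actg-ps1* and *Actb-ps1* were not counted. The levels of *Actg1*, and to a smaller extent *Actb*, are therefore uncertain. A read that matched several places equally well was kept at 1 of them, and a read that matched more places than the mapping allowed was not kept. *Actg1* also overlaps the microRNA gene *Mir6935*, which was counted with 21 to 99 reads per library. A human transgene is in no mouse annotation, so reads of the human skeletal actin transcript that were placed on *Acta1* cannot be told apart from reads of mouse *Acta1* in a count per gene.

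The mouse promoters of *Acta1* and *Actc1*, whose counts differed most clearly between the genotypes, are printed from the RefSeq sequences of GRCm38.p6. They cover the 250 bases before the start site. The CArG box is in capitals (exactly 6 A or T bases between CC and GG, searched on both strands). In HSALR mice the *Acta1* counts may include transgene reads, so their rise is not shown to come from this promoter. The *Acta1* stretch is chr8:123894776-123895025 and the *Actc1* stretch is chr2:114052876-114053125, both on the minus strand.
Acta1: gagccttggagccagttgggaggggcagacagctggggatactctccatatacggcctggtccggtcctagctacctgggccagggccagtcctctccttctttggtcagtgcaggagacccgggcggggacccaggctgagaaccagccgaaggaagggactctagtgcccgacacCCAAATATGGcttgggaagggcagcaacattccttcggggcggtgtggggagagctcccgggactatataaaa
Actc1: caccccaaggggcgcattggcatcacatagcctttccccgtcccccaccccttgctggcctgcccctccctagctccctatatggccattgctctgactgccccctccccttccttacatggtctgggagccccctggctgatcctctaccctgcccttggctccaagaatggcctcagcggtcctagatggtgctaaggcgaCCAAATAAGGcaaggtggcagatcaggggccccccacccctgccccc
The box began 73 bases before the start site of *Acta1* and 47 bases before that of *Actc1*. *Actg1* held 1 box as well, 90 bases before its start, and the *Acta2* window held none with exactly 6 A or T bases. Stretches that miss this pattern by 1 base were not searched, and the *Acta2* and *Actc1* windows each hold such a stretch. Promoters of *Actb* and *Actg2* were not analysed here. Of 32851 mouse promoters of the same length, 1.47% held a CArG box. A site for MEF2, a muscle transcription factor, which was found in 2.92% of all promoters and in none of these 4, was also searched.

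Per kilobase of the gene length given with the counts, *Acta1* stood far above the other members in vehicle-treated control muscle, at 18471 ± 1507 normalized CPM per kilobase (SD, n = 3). *Actb* followed with 120 ± 17, *Actc1* with 76.1 ± 46.1, *Actg1* with 71.6 ± 8.21 and *Acta2* with 31.1 ± 7.59. *Actg2* was last with 0.874 ± 0.388. *Actc1* and *Actg1* did not differ beyond their spread in that order, while the distance from *Acta1* to all others exceeded it many times. In vehicle-treated HSALR muscle the order was *Acta1* (22963 ± 1112, n = 5), *Actb* (115 ± 12.2), *Actg1* (51.9 ± 6.70), *Acta2* (23.4 ± 3.79), *Actc1* (8.58 ± 0.843) and *Actg2* (0.736 ± 0.305), so *Actc1* stood below both *Actg1* and *Acta2* there. The 6 genes together took 2.5% to 3.97% of all counted reads of a library.

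**Figure D1:**
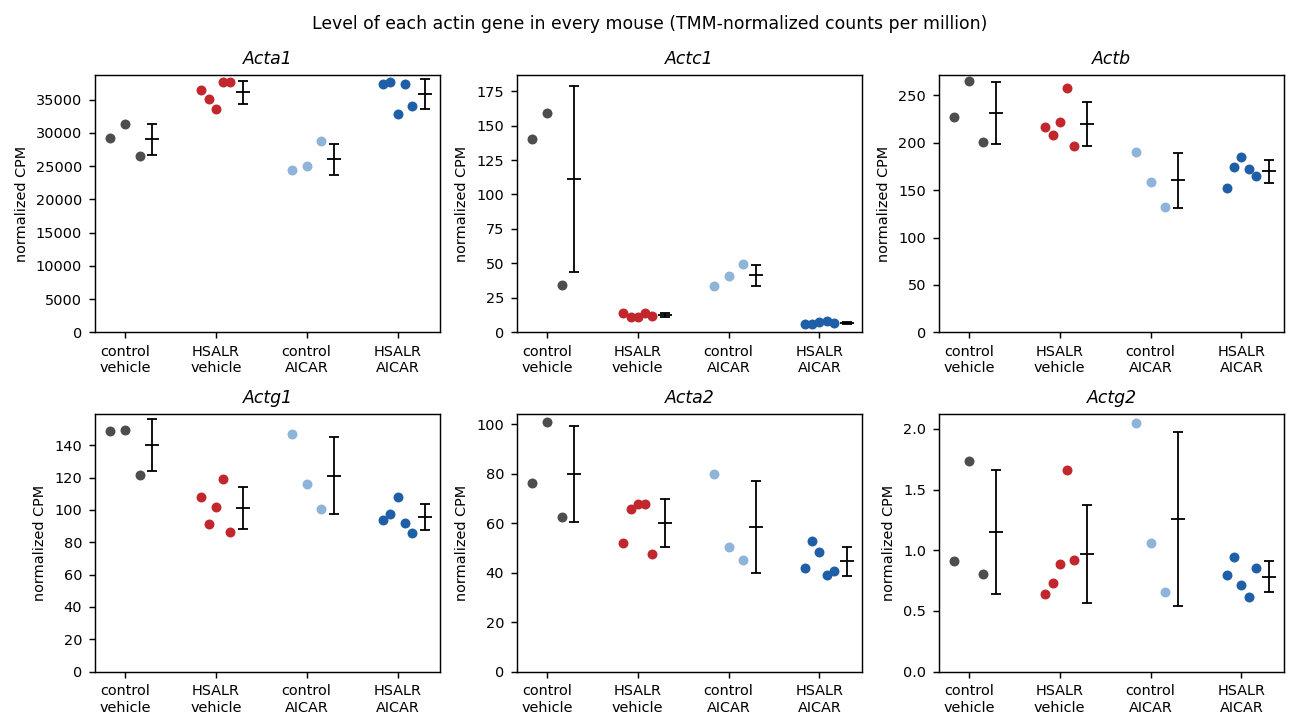
Normalized CPM (y axis, from 0) of each actin gene in every mouse of the 4 groups (x axis). Points are mice, and the bar beside each group is the mean with its SD. *Acta1* sits at 24411 to 31273 in control mice and at 32834 to 37705 in HSALR mice, and *Actc1* is 33.8 or more in every control mouse and 13.9 or less in every HSALR mouse.

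Of the 6 members, 1 was called higher and 2 lower in HSALR than in control muscle after vehicle, against 15.4% of all genes tested called higher and 11.5% called lower. *Acta1*, the actin of the skeletal muscle thin filament, measured 26552, 29229 and 31273 normalized CPM in the control mice. In the HSALR mice it measured 33586, 35105, 36383, 37595 and 37705 normalized CPM. The groups did not overlap, and every HSALR mouse was above the highest control mouse. The fitted log2 fold change was 0.31 ± 0.08 (SE), with a 95% interval of 0.15 to 0.48 and an adjusted p = 0.0079 by edgeR. A two-sided exact permutation test of the log2 levels gave p = 0.018, the smallest value that 5 against 3 mice allow. Reads of the human transgene, which only HSALR mice carry, cannot be told apart from *Acta1* in these counts. Without the libraries with epidermal RNA, described below, the log2 fold change was 0.26 and the call was not kept.

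*Actc1*, the cardiac actin that skeletal muscle uses before birth, had the largest difference among the members. Control mice given vehicle had 34.1, 140 and 159 normalized CPM, and HSALR mice given vehicle had 11.3, 11.5, 12.2, 13.7 and 13.9. The HSALR mice lay close together and below all controls, whereas the controls were spread over a wide range. The log2 fold change was -3.15 ± 0.32 (SE), with a 95% interval of -3.83 to -2.47 and an adjusted p = 5.4e-06 by edgeR. The exact permutation test gave p = 0.018, again the smallest value possible. The low control was mouse S450, which also stood apart in genes of slow and cardiac muscle. Its *Myh7*, the slow myosin heavy chain, was 4812 normalized CPM against 1506 and 1647 in the other vehicle controls, and its *Tnnc1*, the troponin C of slow and cardiac muscle, was 869 against 248 and 281. So the control with most *Myh7* and *Tnnc1* had the least *Actc1*. Without S450 the log2 fold change of *Actc1* was -3.58, and leaving out each mouse in turn kept it between -3.58 and -2.80 with the call in every fit.

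*Actg1*, the cytoplasmic gamma actin, measured 121, 149 and 150 normalized CPM in vehicle-treated controls. In the HSALR mice it measured 86.3, 91.5, 102, 108 and 119. The groups did not overlap, but the highest HSALR and the lowest control mouse nearly met. The log2 fold change was -0.46 ± 0.12 (SE, adjusted p = 0.011 by edgeR), and the exact permutation test gave p = 0.018. The call was lost without control mouse S445 (adjusted p = 0.056) and without control mouse S446 (adjusted p = 0.0504). The windows of this transcript that also occur in other genes (56.7%) make its level uncertain.

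*Actb*, the cytoplasmic beta actin often used as a reference gene, did not pass the test. Vehicle-treated controls had 200, 227 and 265 normalized CPM, and HSALR mice had 197, 208, 216, 222 and 258. The ranges overlapped nearly in full, and the 95% interval of the log2 fold change was -0.32 to 0.18. *Acta2*, the vascular smooth muscle actin, was 62.5, 76.1 and 101 in controls and 47.4, 51.9, 65.8, 67.8 and 67.9 in HSALR mice. These ranges overlapped as well, and the log2 fold change of -0.41 ± 0.19 (SE) had an adjusted p = 0.12 by edgeR. *Actg2*, the enteric smooth muscle actin, was between 0.640 and 1.73 normalized CPM in the vehicle-treated mice of both genotypes, or 46 to 136 reads per library, and its 95% interval of -1.02 to 0.53 excludes neither a decrease nor an increase.

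After AICAR, 1 member was called higher and 1 lower in HSALR than in control muscle, against 12.2% and 9.64% of all genes tested. These mice are not those of the vehicle comparison. *Acta1* was 24411, 24955 and 28734 normalized CPM in controls and 32834, 34031, 37278, 37392 and 37598 in HSALR mice. The groups were apart again, with a log2 fold change of 0.46 ± 0.08 (SE, adjusted p = 8.0e-04 by edgeR). *Actc1* was 33.8, 40.9 and 49.4 in controls and 5.94, 6.35, 6.52, 7.75 and 8.07 in HSALR mice. Here the controls were much closer together than after vehicle, and the log2 fold change was -2.58 ± 0.32 (SE, adjusted p = 6.2e-05 by edgeR), or 5.97-fold lower. Both genes gave an exact permutation p = 0.018.

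*Actg1* had a log2 fold change of -0.34 ± 0.12 (SE) between the genotypes after AICAR, with an adjusted p = 0.058 by edgeR, and the groups overlapped (86.0 to 108 in HSALR and 101 to 147 in control mice). The difference passed the threshold with DESeq2 (adjusted p = 0.024) and with RLE scaling in edgeR (adjusted p = 0.045). *Acta2* had a log2 fold change of -0.39 ± 0.19, *Actb* of 0.08 ± 0.12 and *Actg2* of -0.68 ± 0.36 (SE), none of which passed the test.

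**Figure D2:**
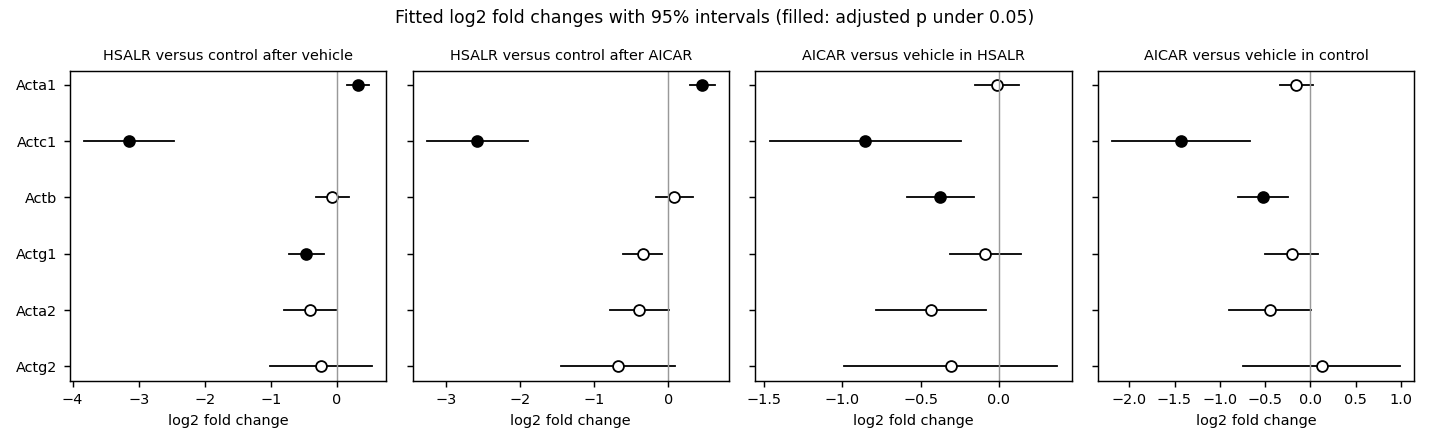
Fitted log2 fold change (x axis, own scale in each panel) of the 6 actin genes (y axis) in 4 comparisons, with 95% intervals as lines. Filled points passed an adjusted p of 0.05. *Acta1* lies to the right and *Actc1* to the left of 0 in both comparisons of the genotypes, and *Actb* and *Actc1* lie to the left in both comparisons of the treatments.

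AICAR was compared with vehicle within HSALR mice to ask what the compound did in muscle that carries the transgene. There, 0 members were called higher and 2 lower, against 13.7% of all genes called higher and 13% called lower. *Actc1* had 11.3 to 13.9 normalized CPM after vehicle and 5.94 to 8.07 after AICAR, and the groups did not overlap. The log2 fold change was -0.85 ± 0.29 (SE, adjusted p = 0.039 by edgeR), or 1.81-fold lower, and the exact permutation test gave p = 0.0079, the smallest value for 5 against 5 mice. The call was not kept in all fits. In a fit of these 2 groups alone the adjusted p was 2.0e-04, with robust estimation it was 0.051, with limma voom 0.14, and in 9 of 10 fits that left out 1 mouse it was between 0.052 and 0.087, while the log2 fold change stayed between -0.92 and -0.80.

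*Actb* was the other member called lower by AICAR in HSALR muscle. Vehicle-treated mice had 197 to 258 normalized CPM, and AICAR-treated mice had 152, 165, 172, 175 and 185. All treated mice were below all vehicle-treated mice, with a log2 fold change of -0.37 ± 0.10 (SE, adjusted p = 0.013 by edgeR). In the same comparison 0 of 6 fibroblast markers were higher and 4 lower (median log2 fold change -0.54), and their sum was 1550 to 2100 normalized CPM after vehicle and 1163 to 1585 after AICAR. Of 7 endothelial markers 3 were higher and 0 lower, and of 9 epidermal markers 0 were higher and 9 lower (median -9.67), against 13.7% of all genes called higher and 13% called lower. Without the libraries with epidermal RNA, described below, *Actb* was -0.35 and no longer called (adjusted p = 0.24 by edgeR). The part of fibroblasts and endothelium in the level of *Actb* was not tested. *Acta2* was 39.1, 40.7, 42.0, 48.3 and 52.9 after AICAR, overlapping the vehicle range of 47.4 to 67.9, and its log2 fold change of -0.43 ± 0.17 (SE) had an adjusted p = 0.065. Among the alternatives, *Acta2* passed with DESeq2 (adjusted p = 0.034), in a fit of the 2 groups alone (0.019), with library size alone (0.039) and without HSALR mouse S459 (0.042). *Acta1* (95% interval of the log2 fold change -0.15 to 0.13) and *Actg1* (-0.31 to 0.14) stayed close to their vehicle levels, and *Actg2* had an interval of -0.99 to 0.38.

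In control muscle, 0 members were called higher and 2 lower after AICAR, against 8.4% and 4.77% of all genes. *Actb* measured 132, 159 and 190 normalized CPM after AICAR, and every value was below the lowest vehicle value of 200. Its log2 fold change was -0.53 ± 0.13 (SE, adjusted p = 0.016 by edgeR), and the call was lost without vehicle mouse S446 (adjusted p = 0.070), without AICAR mouse S449 (0.075) and in a fit of the 2 groups alone (0.076). *Actc1* measured 33.8 to 49.4 after AICAR and 34.1 to 159 after vehicle, so the groups overlapped through mouse S450. Its log2 fold change was -1.42 ± 0.36 (SE, adjusted p = 0.017 by edgeR), and the call was lost in 4 of 6 fits that left out 1 mouse, in a fit of the 2 groups alone (adjusted p = 0.12) and with limma voom (0.059). The exact permutation tests gave p = 0.10 for *Actb*, the smallest value for 3 against 3 mice, and p = 0.30 for *Actc1*. The other 4 members did not pass the test. Over the 4121 genes called for AICAR in HSALR muscle, a control mouse was placed between the other vehicle controls (position 0) and the other AICAR controls (position 1). Vehicle mice stood at 0.255 to 0.636 and AICAR mice at 0.161 to 0.912, so the control groups overlapped. The mice that overlapped were S450 (0.636) and S448 (0.161), the controls with epidermal RNA (*Krt14* at 12.6 and 20.7 normalized CPM). The genes come from a comparison in which that RNA differed between the groups, as described below. Whether that RNA bears on the overlap was not tested.

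The difference between the AICAR effects of HSALR and control mice was tested directly. It was called for 0 members by edgeR, DESeq2 and limma voom, and 0 members had an unadjusted p under 0.05 by edgeR, against 0.207% of all genes called higher and 0.484% called lower. For *Actc1* the difference was 0.57 ± 0.45 on the log2 scale (SE), with a 95% interval of -0.40 to 1.54. Without vehicle control S450 it was 1.00 with an adjusted p = 0.047. For *Actb* the interval was -0.20 to 0.50.

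HSALR mice given AICAR were also set against control mice given vehicle, the mice of the other comparisons. There 1 member was higher and 4 were lower, against 20.8% and 16.4% of all genes. *Actc1* was 16.0-fold lower (log2 fold change -4.00 ± 0.33, SE). *Acta2* (-0.84 ± 0.19), *Actg1* (-0.55 ± 0.12) and *Actb* (-0.44 ± 0.12) were lower, with adjusted p = 0.0027, 0.0028 and 0.0073 by edgeR. *Acta1* was higher (0.30 ± 0.08, adjusted p = 0.0069), and *Actg2* did not pass the test. The *Actb* call was lost without vehicle control S446 (-0.33, adjusted p = 0.056 by edgeR). Without the libraries with epidermal RNA, described below, *Acta1* was 0.24 and its call was not kept.

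A share of the summed actin counts does not depend on how libraries are scaled, but a gain of *Acta1* counts, transgene reads included, lowers every other share. *Acta1* held 98.1% ± 0.295 (SD, n = 3) of actin counts in vehicle-treated controls and 98.9% ± 0.123 (n = 5) in vehicle-treated HSALR mice. After AICAR the shares were 98.5% ± 0.347 (n = 3) and 99.1% ± 0.103 (n = 5). The shares of the genotypes did not overlap within a treatment, and the exact permutation test gave p = 0.018 for each, the smallest value possible, among 24 shares compared without adjustment.

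*Actc1* held 0.126%, 0.470% and 0.497% of actin counts in the vehicle-treated controls and 0.0321% to 0.0372% in the vehicle-treated HSALR mice. After AICAR it held 0.136%, 0.162% and 0.170% in controls and 0.0158% to 0.0234% in HSALR mice. Within HSALR mice its share fell by 0.0150 percentage points with AICAR (exact permutation p = 0.0079). The share of *Actb* was 0.778% ± 0.0460 in vehicle-treated controls and 0.604% ± 0.0634 in vehicle-treated HSALR mice, and that of *Actg1* was 0.472% ± 0.0245 and 0.278% ± 0.0353 (SD). Neither pair of groups overlapped (exact permutation p = 0.018). When *Acta1* was left out of the sum, *Actb* held 13.9 percentage points more of the remaining actin counts in HSALR than in control mice after vehicle and 11.6 more after AICAR (exact permutation p = 0.018 for both). In the same sum *Actc1* held 18.4% ± 8.91 in control and 3.18% ± 0.333 in HSALR mice after vehicle (SD), 15.2 percentage points less, while the level of *Actb* did not pass the test. The direction for the share of *Actb* thus depends on whether *Acta1* is part of the sum. The share of *Actg1* after vehicle does too, with a difference of 0.25 percentage points and overlapping groups when *Acta1* was left out (exact permutation p = 0.88).

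**Figure D3:**
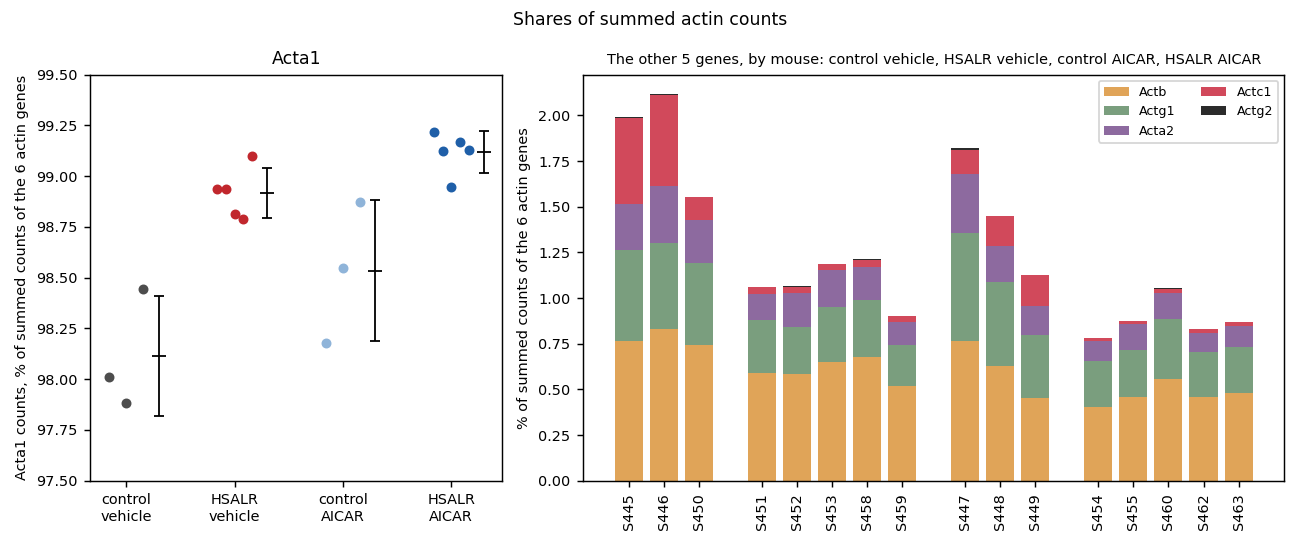
Left, share of *Acta1* in the summed counts of the 6 actin genes (y axis in percent, not starting at 0) for every mouse, with mean and SD per group. Right, stacked shares of the other 5 genes for each mouse (x axis). The part of *Actc1* is 0.126% or more in all control mice and 0.0372% or less in all HSALR mice, and *Acta1* holds between 97.9% and 99.2% in every mouse.

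Genes that act with actin were followed in 7 lists. Among 24 thin filament partners, 8 were higher and 2 lower in HSALR than in control muscle after vehicle, against 15.4% and 11.5% of all genes, and the median log2 fold change was 0.18 against 0.0097 over all genes tested. *Xirp1*, an actin-binding protein of the intercalated disc and of damaged fibres, was 194.9 ± 49.8 normalized CPM in controls (SD, n = 3) and 803 ± 211 in HSALR mice (n = 5), a log2 fold change of 2.04. *Flnc*, the filamin of muscle, rose by 1.39 and *Csrp3*, the muscle LIM protein, by 1.38 on the log2 scale. *Pdlim7*, a Z-disc protein with a PDZ and LIM domains, fell by 1.41, and *Tpm3*, the slow tropomyosin, fell by 1.13. The vehicle controls were spread widely for *Tpm3*, from 435 to 1448 normalized CPM, and without S450 its log2 fold change was -0.33 (adjusted p = 0.47 by edgeR). Its call was also lost without HSALR mice S451, S453 or S459. After AICAR 6 of the 24 were higher and 2 lower between the genotypes (12.2% and 9.64% of all genes), and AICAR within HSALR mice had 2 higher and 7 lower (13.7% and 13%). The AICAR effects of the genotypes differed for *Xirp1* (by -1.84 on the log2 scale, HSALR minus control, adjusted p = 0.0496 by edgeR) and for *Klhl40*, which stabilizes thin filament proteins (-0.88). Of 16 fits that left out 1 mouse, 12 lost the call for *Xirp1* and 11 that for *Klhl40*, and both were lost without the libraries with epidermal RNA described below (adjusted p = 0.26 and 0.22).

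Of 11 tested genes for the folding and modification of actin, 6 were higher and 0 lower in HSALR muscle after vehicle, against 15.4% and 11.5% of all genes, with a list median of 0.19, and 5 did not pass the test. All 6 called encode subunits of the CCT chaperonin, which folds actin and tubulin. Most genes of the list encode such subunits, so this follows largely from its make-up. *Tcp1* rose by 0.34 (adjusted p = 2.2e-04), *Cct3* by 0.29 and *Cct5* by 0.29 on the log2 scale, and all 3 calls were lost without the libraries with epidermal RNA (adjusted p = 0.11, 0.091 and 0.20 by edgeR). *Tcp1* was 196.6 ± 1.81 normalized CPM in controls (n = 3) and 248 ± 12.9 in HSALR mice (n = 5). After AICAR 2 of the 11 were higher and 0 lower between the genotypes, near the 12.2% of all genes called higher.

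Among 18 genes of actin nucleation, 4 were higher and 3 lower after vehicle, shares near those of all genes tested (15.4% and 11.5%). *Spire1*, a nucleator, rose by 1.00 (adjusted p = 1.1e-05), the formin *Diaph1* by 0.56, and *Arpc5l*, of the Arp2/3 complex, by 0.27 on the log2 scale. *Fhod1* (-0.61), *Diaph2* (-0.59) and *Wasl* (-0.29) were lower, *Wasl* with its call lost without control mouse S450 (adjusted p = 0.070). With AICAR, 5 of the 18 were higher and 0 lower in HSALR mice (13.7% and 13% of all genes), and 4 were higher and 0 lower in control mice (8.4% and 4.77%). Of 14 turnover genes, *Tmsb10* (0.49) and *Cfl2* (0.33), which bind actin monomers and sever filaments, were higher after vehicle and 0 were lower, against 15.4% of all genes called higher, so the count is near the background. The call for *Tmsb10* was lost without control mice S445 or S450 or HSALR mice S453 or S458, and that for *Cfl2* without S445, S446 or S452. Of 14 genes that crosslink or anchor cytoplasmic actin, 0 were higher and 2 lower by edgeR, among them *Rdx*, which links filaments to the membrane (-0.24). The count is near the 11.5% of all genes called lower, and the call for *Rdx* was lost without S445 (adjusted p = 0.11) or S450 (0.075). After AICAR 3 of the 14 were higher and 4 lower between the genotypes (12.2% and 9.64% of all genes), and in HSALR after AICAR against control after vehicle 2 were higher and 5 lower (20.8% and 16.4%).

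Serum response factor, *Srf*, and its coactivators had 1 of 11 genes higher and 2 lower after vehicle, near the shares of all genes tested (15.4% and 11.5%), and a median of -0.06. *Smyd1*, a methyltransferase of muscle, rose by 0.21, while *Myocd*, the coactivator of smooth and cardiac muscle, fell by 1.13 and *Ablim3* fell by 0.51 on the log2 scale. The call for *Smyd1* was lost without S445, S450 or S452 and that for *Ablim3* without S445, S450, S452, S453 or S459. *Srf* itself had 95.2 ± 1.79 normalized CPM in controls and 95.5 ± 3.84 in HSALR mice after vehicle, and 84.4 ± 8.43 and 80.7 ± 4.04 after AICAR. It was the 1 gene of the list called for AICAR in HSALR mice, lower by a log2 fold change of -0.24 (adjusted p = 0.0041 by edgeR), and the call was lost without the libraries with epidermal RNA (adjusted p = 0.11).

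**Figure D4:**
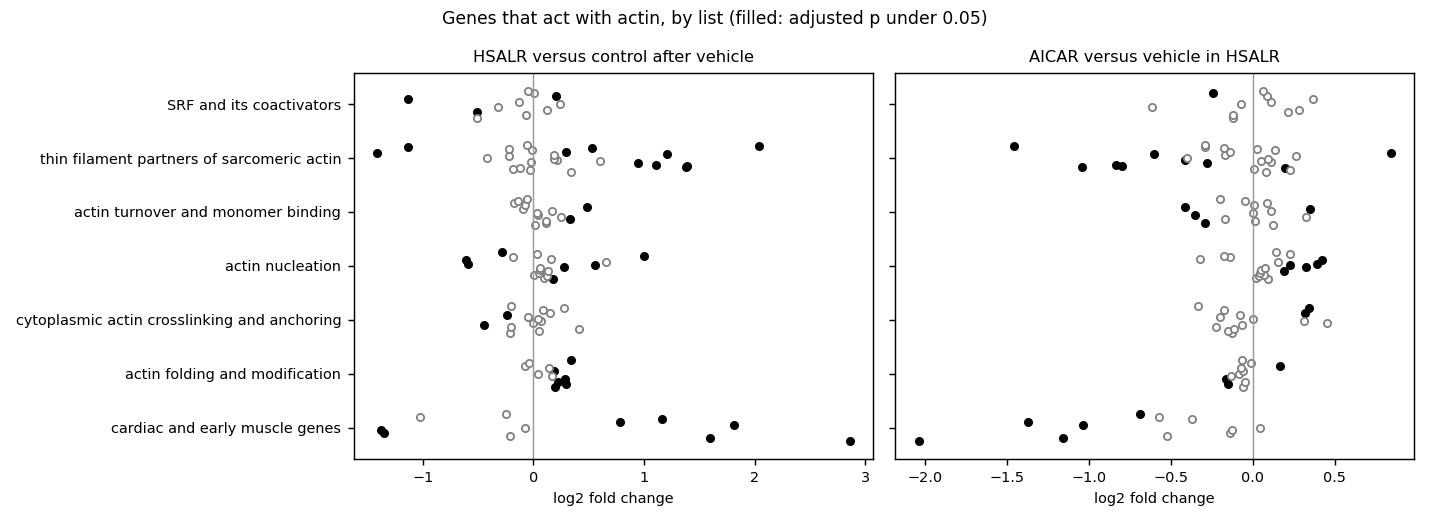
Log2 fold change (x axis) of each gene of 7 lists (y axis) for HSALR against control after vehicle (left) and for AICAR against vehicle in HSALR mice (right). Filled points passed an adjusted p of 0.05. In the left panel 6 of 11 folding genes are filled to the right of 0 and none to the left, and in the thin filament list 8 are filled to the right and 2 to the left.

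*Actc1* was set beside 11 other genes of cardiac and early muscle, of which 5 were higher and 2 lower in HSALR muscle after vehicle, against 15.4% and 11.5% of all genes. *Ankrd1*, a stress-responsive ankyrin repeat protein, rose by 2.86, *Myl4*, the embryonic and atrial light chain, by 1.82 and *Cdkn1a*, the cell cycle inhibitor, by 1.60 on the log2 scale, all opposite to *Actc1*. *Myh7* fell by 1.37 and *Myh6*, the cardiac heavy chain, by 1.35. Both rested on vehicle control S450, without which the log2 fold changes were -0.62 (adjusted p = 0.17 by edgeR) and -0.62 (0.18), while that of *Ankrd1* was then 3.55. *Myh6* and *Myh7* are near-identical neighbours, and *Myh6* counts may hold reads of *Myh7*. The embryonic myosin *Myh3* had 5.00 to 17.6 normalized CPM in vehicle-treated controls and 6.39 to 9.99 in vehicle-treated HSALR mice and did not pass the test. AICAR in HSALR mice went with 0 of the 11 higher and 5 lower (13.7% and 13% of all genes), among them *Myog*, the myogenic factor myogenin (-1.37, adjusted p = 8.0e-05), *Ankrd1* (-2.04) and *Myl4* (-1.04). In control mice 0 were higher and 2 lower (8.4% and 4.77% of all genes), *Myog* (-1.02, adjusted p = 0.098 without the libraries with epidermal RNA) and *Myh3* (-1.27). *Myh3* was 17.6 normalized CPM in S450 and 5.32 and 5.00 in the other vehicle controls, and without S450 its log2 fold change was -0.42 (adjusted p = 0.31 by edgeR), the call being lost without S448 or S449 as well. So *Actc1* and *Myl4* differed in opposite directions between the genotypes, while both were lower after AICAR in HSALR mice.

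For *Acta2* and *Actg2*, 8 markers of smooth muscle were examined, and 0 were higher and 4 lower in HSALR muscle after vehicle, against 15.4% and 11.5% of all genes. *Myh11*, the smooth muscle myosin, was 51.6, 69.2 and 74.2 normalized CPM in controls and 33.8 to 39.9 in HSALR mice, and the groups did not overlap. Its log2 fold change was -0.83 (adjusted p = 9.8e-05 by edgeR), and *Cnn1* (-0.84), *Mylk* (-0.53) and *Myl9* (-0.40) were lower too, while *Tagln* (-0.44) had an adjusted p = 0.096. Without control mouse S446 *Cnn1* was -0.51 (adjusted p = 0.23) and *Myl9* -0.28 (0.22), and each lost its call in 4 further fits that left out 1 mouse. The summed level of the list was 680 to 769 in control and 660 to 752 normalized CPM in HSALR mice after vehicle. *Synpo2*, which skeletal fibres also express, made up 438 ± 17.4 of that sum in controls (SD, n = 3) and 491 ± 29.9 in HSALR mice (n = 5). No marker of the list was at 0.

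Markers of endothelium moved the same way. Of 7, 0 were higher and 6 lower in HSALR muscle after vehicle (15.4% and 11.5% of all genes, as for the other markers here), and their sum was 295 to 325 normalized CPM in controls and 198 to 252 in HSALR mice. After AICAR the sums were 297 to 316 and 240 to 265, with 0 higher and 2 lower (12.2% and 9.64% of all genes). Of 6 pericyte markers, 0 were higher and 4 lower after vehicle, with sums of 780 to 857 and 607 to 717. The part of vessel content in the levels of *Acta2*, *Actb* and *Actg1* was not tested. Fibroblast (6), tendon (5), Schwann cell (6) and adipocyte (5) markers had 0 calls in this comparison by edgeR, and 2 of 7 leukocyte and macrophage markers were higher (15.4% of all genes). The 9 markers of skeletal muscle fibres, which check the tissue, summed to 94026 to 140260 normalized CPM in every library. Of 3 heart markers tested 0 were higher and 2 lower (11.5% of all genes), *Myh6* and *Ryr2*, the calcium release channel of heart muscle. *Ryr2* was 0.699 ± 0.149 normalized CPM in controls and 0.264 ± 0.108 in HSALR mice (SD). The *Myh6* call rested on vehicle control S450, as given above. Neither call was kept without the libraries with epidermal RNA, described below. *Nppa*, *Nppb* and *Myl7* did not pass the filter on low counts.

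**Figure D5:**
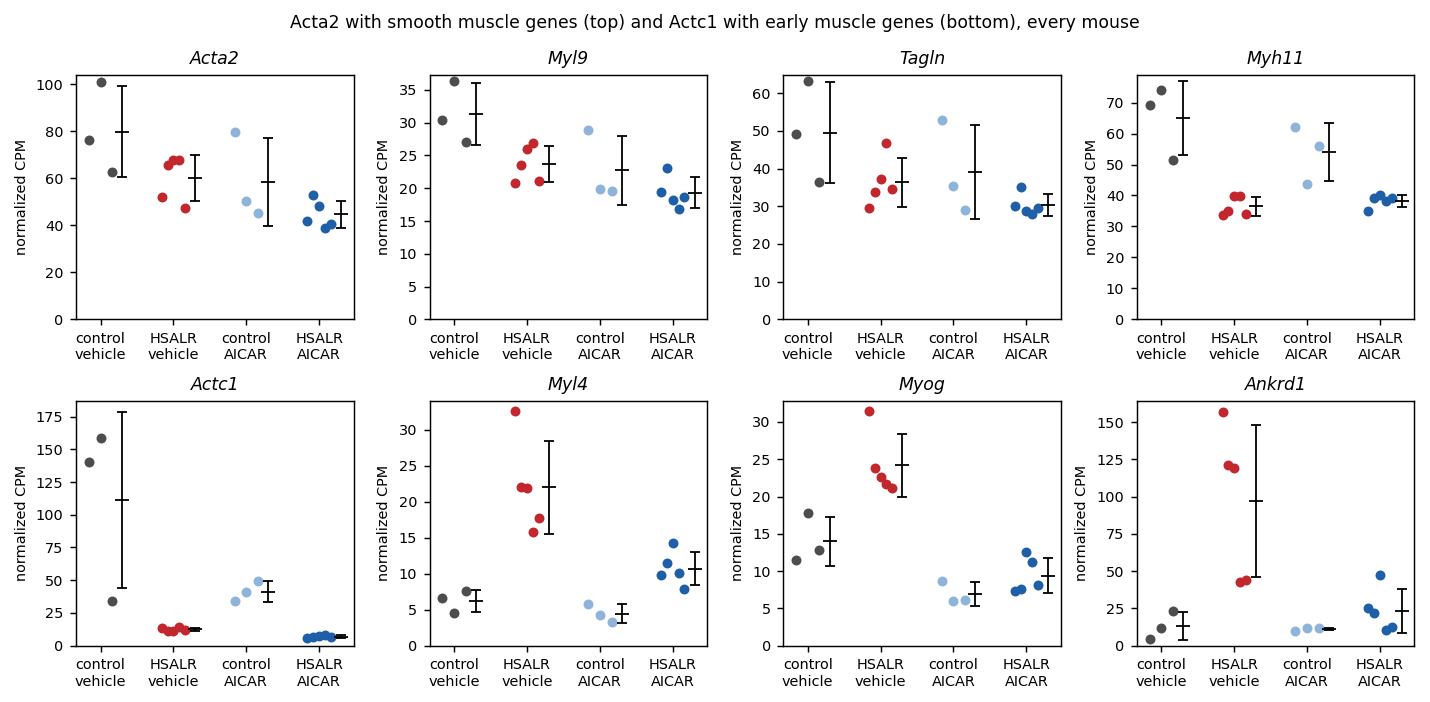
Normalized CPM (y axis, from 0) of *Acta2* with 3 smooth muscle genes (top) and of *Actc1* with 3 early muscle genes (bottom) in every mouse, with the mean and SD per group. *Myh11* is 43.7 or more in all control mice and 40.1 or less in all HSALR mice, and *Myl4* is higher while *Actc1* is lower in HSALR than in control mice.

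Epidermal RNA was present in some libraries. *Krt14*, a keratin of the skin, was above 1 normalized CPM in 1 of 3 vehicle-treated controls, 4 of 5 vehicle-treated HSALR mice, 1 of 3 AICAR-treated controls and 0 of 5 AICAR-treated HSALR mice. The summed level of 9 epidermal markers was 3.74 to 298 normalized CPM in vehicle-treated HSALR mice and 2.47 to 3.10 in AICAR-treated HSALR mice. Without these 6 libraries, an alternative added after the data had been seen, a single vehicle-treated HSALR mouse was left, which the fit assumes to vary like the other groups. *Actc1* was then still called lower in HSALR muscle after vehicle (log2 fold change -3.46, adjusted p = 2.7e-04 by edgeR) and after AICAR in HSALR mice (-0.99, adjusted p = 0.024) and control mice (-1.86, adjusted p = 0.0028). *Acta1* (0.26, adjusted p = 0.40) and *Actg1* (-0.47, adjusted p = 0.21) kept their direction but not their calls after vehicle, and so did *Actb* for AICAR in HSALR mice (-0.35, adjusted p = 0.24) and in control mice (-0.62, adjusted p = 0.054). In the 10 libraries left, 14 genes of the 7 lists were called for the genotype after vehicle, compared with 37 in all libraries, and of 32 genes named here from the lists and markers (*Klhl40* and *Ryr2* among them) that were called in all libraries 12 were still called. For AICAR in HSALR mice 6 of 17 such genes were still called, and for AICAR in control mice 1 of 5. *Acta1* remained called for the genotype after AICAR (0.43, adjusted p = 0.028).

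The genes whose level was most like that of a member over the 16 mice were taken from 13000 genes with a mean count of at least 50, as a description. The points share the 4 groups, so a gene that differs between genotypes can rank high for that alone. For *Acta1* these were *Fntb* (Pearson r = 0.96), *Evi2b*, *Myoz3*, *Snrpa* and *Pak1* (r = 0.93). *Myoz3*, a Z-disc protein of fast fibres, was the sarcomeric gene among them. For *Acta2* they were *Myl9* (r = 0.96) and *Tagln* (r = 0.92), both of smooth muscle, followed by the chemokine gene *Ccl21b* and its copies *Gm10591* and *Gm13304*. The 3 copies had equal counts in all 16 libraries, so they are 1 measurement.

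For *Actb* they were *Ccl21a* and its copy *Gm1987* (r = 0.95, equal counts in all 16 libraries), *Cd209g*, *Plac9b* and *Fzd2*. For *Actc1* they were *4933404O12Rik* (r = 0.95), *Strbp*, *Sytl2*, *Arhgef10* and *Plcd4* (r = 0.93). All 5 had negative log2 fold changes between the genotypes after vehicle, from -0.36 for *Arhgef10* to -1.91 for *Sytl2*. For *Actg1* they were *Vasp* (r = 0.96), which binds the growing ends of actin filaments, *Mmd*, *Ushbp1*, *Hspa12a* and *Cp*. For *Actg2* they were *Plekha4* (r = 0.89), *Csrp1*, *Aatk*, *P2rx1* and *Tagln* (r = 0.87).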

How the data were processed

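The deposited values were counts per gene for each of 16 mice. Per the paper's methods and the submitters' processing notes, the authors mapped single-end reads of stranded mRNA libraries to mm10 with STAR 2.5.2a. They limited how many places a read could match and kept 1 location for hits of equal score. Reads starting in RefSeq exons were counted with QuasR. Use of strand in counting is not given in the sources used here. Entrez identifiers were named from RefSeq (24374 of 24454 matched).

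Differences were fitted by edgeR 4.0.16 under R 4.3.3 (TMM, filterByExpr, quasi-likelihood fit over the 4 groups, 15487 genes, Benjamini-Hochberg threshold 0.05). Shares and single levels were compared by two-sided exact permutation tests. Coding sequences were aligned with Biopython 1.88. Alternatives were other scalings, filters, robust estimation, 2-group fits, limma voom 3.58.1, DESeq2 1.42.0 and leaving out each mouse.

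The members, lists and tests were chosen with earlier results of these data known. All 6 members are named, with at most 3 list genes per direction past the threshold after vehicle, the 5 genes most like each member, and smooth and early muscle genes. *Srf*, *Klhl40*, *Ryr2*, *Myh3* and *Krt14* were named after their values were seen. Mice were taken as separate animals from their labels, and p-values measure the spread between them. Replicates were compared, and no pair agreed within sampling noise. Counting intervals were not needed at this depth, where the spread between mice was larger. A gene of the crosslinking list is not reported here by name.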

Additional observations from a re-analysis of the deposited data

Results flagged for a closer look

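Among 24 groups of 5 mice examined (6 members, levels and shares, HSALR groups), 2 held a mouse far from the others by Dixon's test, which flags about 1 group in 20 by chance. *Actg2* was 1.66 normalized CPM in vehicle-treated HSALR mouse S458 and 0.64 to 0.92 in the other mice of its group. *Actg1* took 0.325% of the summed actin counts in AICAR-treated HSALR mouse S460 and 0.245% to 0.257% in the other mice of its group. The cause was not tested in either case.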

How the results depend on the processing

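No paired analysis was possible because each mouse has its own identifier and no number is shared between groups. Of 390 log2 fold changes refitted with other settings, 372 kept direction and call, and of 336 that left out 1 mouse, 295 did. No refit by edgeR moved the median of all genes by over 0.1 on the log2 scale. The median was not taken for limma voom and DESeq2. Where a call or sign was lost, the cause was not tested. The depth was ample for all members but *Actg2*, with 46 to 144 reads a library.

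For the genotype after AICAR, *Actg1* was -0.3556 with RLE scaling and with DESeq2, now called. For AICAR in HSALR mice, *Acta2* was -0.5097 with library size alone, -0.433 in the 2 groups alone and -0.4274 with DESeq2, now called, and *Actc1* was -0.8539 with robust estimation and -0.8606 with limma voom, no longer called. For AICAR in control mice, the 2 groups alone gave -0.5354 for *Actb* and -1.432 for *Actc1*, and limma voom gave -1.158 for *Actc1*, none called, with 1164 genes called by the 2 groups alone. The difference of the AICAR effects was -0.02601 for *Acta2* with library size alone, and DESeq2 called 536 genes for it.

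Without the 6 libraries with epidermal RNA, chosen after seeing the data, genes called were 904 (genotype after vehicle), 899 (AICAR in HSALR), 697 (AICAR in control) and 0 (difference of the AICAR effects, where edgeR gave 1485 genes at an unadjusted p under 0.05 and DESeq2 called 180). Calls were lost for *Acta1* (0.2605) and *Actg1* (-0.4721) after vehicle, *Actb* for AICAR in HSALR (-0.3533) and control mice (-0.6239) and *Acta1* in HSALR after AICAR against control after vehicle (0.2351). *Actg2* turned to 0.2873 for AICAR in HSALR and to 0.2695 for the difference.

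As a share of the 5 other actin genes, the genotype difference after vehicle, in percentage points, turned to 0.9895 (*Acta2*), 13.95 (*Actb*), 0.2497 (*Actg1*) and 0.0409 (*Actg2*). After AICAR it was -1.02 (*Acta2*), 11.62 (*Actb*) and -1.486 (*Actg1*). AICAR in HSALR mice gave -1.189 (*Acta2*), 4.457 (*Actg1*) and 0.006502 (*Actg2*), and in control mice 0.8205 (*Acta2*), 0.06637 (*Actb*) and 6.193 (*Actg1*).

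Leaving out 1 mouse gave, for the genotype after vehicle, -0.1631 to 0.04155 (*Actb*), -0.5579 to -0.4122 (*Actg1*) and -0.5312 to 0.1807 (*Actg2*), and after AICAR -0.04046 to 0.222 (*Actb*) and -0.4611 to -0.1799 (*Actg1*, called without control S449 or HSALR S460). For AICAR in HSALR mice it gave -0.03507 to 0.02003 (*Acta1*), -0.506 to -0.3843 (*Acta2*) and -0.9153 to -0.8032 (*Actc1*). In control mice it gave -0.7396 to -0.2451 (*Acta2*, called without S447), -0.6668 to -0.4042 (*Actb*), -1.854 to -1.075 (*Actc1*) and -0.4181 to 0.552 (*Actg2*). The difference of the AICAR effects ranged over -0.1861 to 0.3084 (*Acta2*), 0.2209 to 1.0 (*Actc1*) and -0.8604 to 0.1098 (*Actg2*). HSALR after AICAR against control after vehicle gave -0.538 to -0.3333 (*Actb*, not called without S446). Genes called ranged over 1143 (without S449) to 1726 for AICAR in control mice, 2214 (without S447) to 3790 for the genotype after AICAR and 15 (without S448) to 371 (without S460) for the difference of the AICAR effects. Share differences ranged over -0.1929 to -0.1484 (*Actb*) and -0.001607 to -0.0003733 (*Actg2*) for the genotype after vehicle, -0.2242 to -0.06919 (*Actb*) and -0.00404 to -0.001055 (*Actg2*) after AICAR, -0.05227 to -0.03357 (*Acta2*) for AICAR in HSALR mice, and -0.07044 to 0.05239 (*Actg1*) and -0.0005911 to 0.002393 (*Actg2*) for AICAR in control mice.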
